A study of Mus musculus with 24 samples.

Results

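The Mrtf genotype effect was measured as 1 contrast over all 24 libraries of the study, 12 Mrtf-mutant against 12 Mrtf-intact, with the virus that the mice received as a covariate. Its members are all genes of the count table, 23337 in all, of which 12281 passed the filter on low counts and were tested. The question was which genes moved with the Mrtf genotype, and which of them moved by about the same amount under both viruses.

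Each library held polyadenylated RNA of mouse heart cardiomyocytes at 4 weeks of age, isolated by Langendorff perfusion and purified by fluorescence-activated sorting. All mice carried the Cas9 nuclease at Rosa26 and received an adeno-associated virus (AAV) on postnatal day 1. The intact groups had the genotype Rosa-Cas9/Cas9 and were Ctrl, which received AAV-Cre, and MKO, which received AAV-Myocd-sgRNA, a virus with a guide RNA against Myocd. The mutant groups had the genotype that the labels spell Mrfta-/-; Mrtfb-F/F; Rosa-Cas9/Cas9, a null allele of Mrtfa and a floxed Mrtfb. These were DKO, which received AAV-Cre, and TKO, which received AAV-Myocd-sgRNA. DKO against Ctrl is called the Cre arm and TKO against MKO the guide arm. Each group held 6 libraries, and the 2 arms share none. The label of the guide virus names no Cre, and the sources used here give neither the promoter that drives Cre nor that of the guide. The strain background and whether the mutant and intact mice were littermates are likewise not given, and neither is whether each library came from 1 animal, so p-values measure the spread between these libraries.

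Mrtfa and Mrtfb are coactivators of serum response factor (Srf). In most cells they are held in the cytoplasm by actin monomers, and when monomers are used up by filament growth they enter the nucleus and bind Srf on the CArG box, a short DNA element in the promoters of actin, actin-binding and contractile genes. Myocardin (Myocd) belongs to the same family, uses Srf as well and is found in the nuclei of heart and smooth muscle.

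Total counts lay between 5.83 M in DKO 1 and 17.18 M in TKO 3. DKO 1 was the shallowest library and stood apart on the first principal component, which took 28.7% of the variance, and values without it are given beside the results it changed most. By Xist and Y-linked counts 8 of the 12 intact libraries and 4 of the 12 mutant libraries were male. Transcripts of the 14 cardiomyocyte markers summed to 129500 to 181900 CPM (read counts scaled to a common library size) in the intact libraries and 112900 to 145100 CPM in the mutant ones. Endothelial markers summed to 198 to 2047 and 199 to 1131 CPM, and fibroblast markers to 165 to 1115 and 139 to 730 CPM. Leukocyte markers did not exceed 27.4 CPM in any library.

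The targeted genes were read first. Mrtfa, listed under its older symbol Mkl1 (chr15:81012281-81190757, mm10), was low in all mutant libraries: the 6 Ctrl libraries held 4.81 to 11.3 CPM with a median of 7.55, MKO 6.39 to 11.9 CPM with a median of 10.3, DKO 1.40 to 2.77 CPM with a median of 1.96 and TKO 1.33 to 2.66 CPM with a median of 2.35. No mutant library reached the lowest intact one. The log2 change was -2.07 ± 0.15 (SE), with -1.92 ± 0.21 in the Cre arm and -2.21 ± 0.21 in the guide arm. Mrtfb, listed as Mkl2 (chr16:13256481-13417529), had 44.8 to 55.9 CPM in Ctrl, 44.1 to 59.2 CPM in MKO, 26.6 to 39.3 CPM in DKO and 27.5 to 42.5 CPM in TKO. Its 12 mutant libraries also lay below all 12 intact ones, and its change was -0.55 ± 0.07 (adjusted p = 2.1e-05), with -0.57 ± 0.11 in the Cre arm and -0.53 ± 0.11 in the guide arm. The ranges of the Mrtfb transcript in DKO and in TKO, under the guide virus, overlapped.

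Neither Srf nor Myocd belonged to the matched changes defined below. Srf fell by 0.68 ± 0.12 (adjusted p = 0.00069), with -0.33 ± 0.14 in the Cre arm and -1.03 ± 0.14 in the guide arm. Srf in DKO 1 stood at 105 CPM beside a DKO median of 59.7, and without that library the Cre arm change was -0.52 and Srf met the rule for matched changes. Myocd rose by 0.47 ± 0.11 (adjusted p = 0.0066), with 0.17 ± 0.13 in the Cre arm and 0.77 ± 0.13 in the guide arm. In the guide arm this compares TKO at 175 to 323 CPM with a median of 230.1 with MKO at 119.8 to 187 CPM with a median of 140.3, and a guide cuts DNA, so the level of the transcript does not report how much of the gene was altered.

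The pooled contrast called 1211 of the 12281 genes at an adjusted p under 0.05, or 9.86%. Of these 687 rose (5.59% of the genes tested) and 524 fell (4.27%). The median log2 change over all genes tested was 0.003. The size of the called changes was modest, with a median of 0.453 on the log2 scale, and 151 reached 2-fold, 107 of them higher and 44 lower.

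A called change was termed matched where both arms moved the same way, the difference between the arms was no larger than the pooled change, and the 95% interval of that difference lay within 2-fold in either direction. By this rule 732 genes were matched, or 5.96% of those tested and 60.4% of those called. They comprised 356 rises (2.9% of genes tested) and 376 falls (3.06%). In 42 called genes the difference between the arms itself passed the test at an adjusted p under 0.05. The other 437 met neither rule and are termed undecided. The count of 42 was the least stable: leaving out 1 library gave from 13 (without DKO 2) to 111 (without DKO 1) such genes. Matched says that a difference over 2-fold lay outside the interval, not that the arms were identical or that each arm showed the change by itself. Only 42 of the 732 were called in both arms. An unadjusted edgeR p under 0.05 was reached by 500 in the Cre arm, 670 in the guide arm and 438 in both. The median size of the matched changes was 0.366, so the 2-fold bound also admits genes with little change in 1 arm. For 33 of the 732 the interval did not contain 0, and 545 of the 732 had the larger change in the guide arm. Over all called genes the interval did not contain 0 for 307, so undecided does not mean that the arms were alike. Since the rule asks for the same sign and a close size, the likeness of the arms within this group is how it was chosen.

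**Figure D1:**
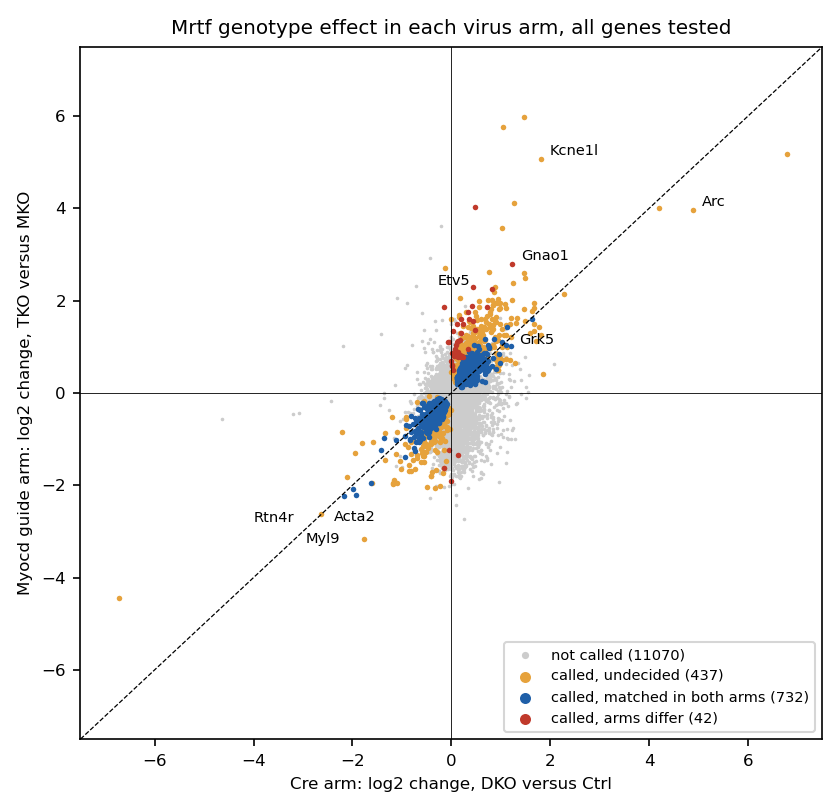
Log2 change in the Cre arm (horizontal) against the guide arm (vertical) for the 12281 genes tested, 1 point per gene, coloured by class; the dashed line marks equal change. The 732 matched genes lie along the line, and the 42 genes whose arms differed lie above or below it on the side of a larger change in the guide arm.

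Read arm by arm, the same contrast gave very different numbers of calls. The Cre arm called 78 genes (0.635% of those tested) and the guide arm 1639 (13.3%), from one fit with a shared spread. Of the 78, 69 were also called in the guide arm, and all 69 moved the same way, 34 up and 35 down. Among the 69, 14 lay within 10 Mb of Mrtfa or Mrtfb, beside 385 of the 12281 genes tested. These 69 made up 88.5% of the Cre arm's calls and 4.21% of the guide arm's. Over all genes tested, 61.4% had the same sign in both arms, as against 97.4% of the Cre arm's calls and 75.8% of the guide arm's. Genes called higher in the guide arm had a median change of 0.647 there and 0.181 in the Cre arm, and genes called lower had -0.918 and -0.118. These genes were chosen by their guide arm values, so the larger median there follows in part from the choice. Without DKO 1 the Cre arm called 124 genes, 111 of them called in the same direction in the guide arm.

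The largest matched falls among well-expressed genes were led by Acta2, smooth muscle α-actin, which young and stressed cardiomyocytes also express (chr19:34241091-34255336). For Acta2, the 6 Ctrl libraries held 585 to 961 CPM with a median of 789, MKO 411 to 757 CPM with a median of 515, DKO 116 to 256 CPM with a median of 174 and TKO 37.2 to 183 CPM with a median of 115. All 12 mutant libraries lay below all 12 intact ones. The log2 change was -2.20 ± 0.18 (adjusted p = 1e-08), with -2.17 ± 0.27 in the Cre arm and -2.24 ± 0.27 in the guide arm, and the 95% interval of the difference between arms was -0.81 to 0.67. Acta2 is also a marker of smooth muscle. In a list of 11 smooth muscle and pericyte markers Acta2 and Abcc9 fell in the pooled contrast, and 7 were called lower and 1 higher in the guide arm, beside 843 and 796 of the 12281 genes tested, with a median change of -0.04 in the Cre arm and -1.23 in the guide arm. Their summed level was 3707 to 4632 CPM in the intact and 2919 to 4174 CPM in the mutant libraries. That sum includes Acta2 and Des, which cardiomyocytes also express. Of the defining markers, Myh11, smooth muscle myosin, was not called in the pooled contrast at -0.24 ± 0.37 (adjusted p = 0.73). It held 2.74 to 15.2 CPM in Ctrl, 2.89 to 17.1 CPM in MKO, 2.40 to 22.6 CPM in DKO and 2.29 to 9.86 CPM in TKO. Tagln stayed at or below 8.88 CPM in every library. Myh11 and Tagln are only part of the list, in which 7 of 11 were called lower in the guide arm.

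Several actin-binding proteins of the Z-disc and cytoskeleton were also matched falls, while others, such as Xirp2 at 0.63 ± 0.15 and Csrp3 at 0.44 ± 0.12, rose. Pdlim7, a PDZ and LIM domain protein of the Z-disc (chr13:55497487-55513439), had 35.9 to 63.5 CPM in Ctrl, 34.3 to 59.5 CPM in MKO, 21.6 to 38.5 CPM in DKO and 12.4 to 22.2 CPM in TKO. The TKO libraries lay below every intact one, while DKO 1 alone, at 38.5 CPM, reached into the intact range. The change was -1.15 ± 0.13 (adjusted p = 1.3e-06). Its relative Pdlim3 changed by -1.07 ± 0.19 (adjusted p = 0.00065), with -1.11 ± 0.28 in the Cre arm and -1.03 ± 0.28 in the guide arm. Dstn, which severs and depolymerises actin filaments, had 367 to 468 CPM in Ctrl, 423 to 499.9 CPM in MKO, 233 to 361 CPM in DKO and 248 to 349 CPM in TKO and changed by -0.65 ± 0.08 (adjusted p = 2.2e-06). Wdr1, which works with that family in filament disassembly, changed by -0.61 ± 0.07 (adjusted p = 2.2e-06). For both genes the 12 mutant libraries lay below the 12 intact ones. Fermt2, an integrin activator also called kindlin-2, showed the same separation at a much smaller change of -0.25 ± 0.05 (adjusted p = 0.0018).

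Of the 45 genes in a list of MRTF-SRF cytoskeletal targets, 42 were tested. In all 15 fell and 2 rose, beside 4.27% and 5.59% of all genes tested. The median change was -0.36 beside 0.003 over all genes tested. Among the 15, 7 were matched falls: Acta2, Actn1, Capzb, Dstn, Pdlim7, Tpm1 and Wdr1. Without DKO 1, 17 of the list fell, 11 of them matched, and 3 rose, none of them matched; without Ctrl 2, 4 rose. Myl12a, a regulatory light chain of non-muscle myosin, was a matched rise at 0.37 ± 0.11 (adjusted p = 0.023), and Fhl1, a LIM protein, rose unequally, with 0.19 ± 0.14 in the Cre arm and 1.29 ± 0.15 in the guide arm.

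Several of the largest falls in the list were undecided. Myl9, a myosin regulatory light chain of smooth and non-muscle cells, had 36.8 to 84.4 CPM in Ctrl, 94.5 to 134 CPM in MKO, 7.08 to 34.8 CPM in DKO and 6.88 to 20.3 CPM in TKO and changed by -2.47 ± 0.28 (adjusted p = 1.3e-06). Its 24 libraries separated fully by genotype, while the arms gave -1.77 and -3.16 with a difference interval of -2.32 to -0.46. Actg1, cytoplasmic γ-actin, changed by -1.78 ± 0.22 (adjusted p = 3.8e-06), with -1.61 ± 0.31 in the Cre arm and -1.95 ± 0.31 in the guide arm. The calponin Cnn2 changed by -1.52 ± 0.18 (adjusted p = 3.6e-06), with -1.09 ± 0.23 in the Cre arm and -1.95 ± 0.24 in the guide arm. The actins have near-identical coding sequences, and the sources used here do not say how reads that match several of them were counted.

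Acta1, skeletal α-actin, named here after its values were seen, had a change of opposite sign in each arm. It held 56.8 to 342 CPM in Ctrl, 58.0 to 123 CPM in MKO, 12.7 to 44.9 CPM in DKO and 39.6 to 375 CPM in TKO, giving -2.20 ± 0.49 in the Cre arm and 1.03 ± 0.47 in the guide arm. The Cre arm fall was called (adjusted p = 0.029), the guide arm change was not (adjusted p = 0.15), and the difference of 3.23 between them was (adjusted p = 0.035). The pooled change of -0.55 ± 0.52 was not called.

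Promoters bear on this group because the CArG box is the Srf binding element. The 250 bases upstream of each start were taken from RefSeq for GRCm38.p6, which covered 8792 of the tested genes. A CArG box was taken in its exact form of 10 bases, CC, then only A or T, then GG. It was found in 126 of these genes (1.43%). The motif is its own reverse complement in form, so 1 scan covers both strands. Among matched falls beyond 10 Mb from the Mrtfa and Mrtfb loci, 9 of 269 held a box (3.35%), and among matched rises 1 of 234 did (0.427%). In the MRTF-SRF list it was 10 of 37 (27.0%), a list assembled in part from genes known to carry such boxes. None of the 5 matched falls of 2-fold or more with a promoter in the table held this exact form in this window. Forms with a differing base were not searched, so these genes may still carry a CArG box. The shares for matched genes were 3.54% and 0.932% without DKO 1.

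The promoters of 6 genes that fell are shown with the box in capitals, for the 3 cytoskeletal list members with a box that fell most (Myl9, Actg1 and Cnn2), for Srf itself, and for 2 matched genes, Fermt2 and Ampd3; they were chosen after the values were seen. Each is written 5′ to 3′ on the gene's strand and ends at the base before the start. The positions are Myl9 chr2:156775214-156775463 (+ strand), Actg1 chr11:120348496-120348745 (- strand), Cnn2 chr10:79988350-79988599 (+ strand), Srf chr17:46556163-46556412 (- strand), Fermt2 chr14:45530066-45530315 (- strand) and Ampd3 chr7:110773386-110773635 (+ strand).
Myl9: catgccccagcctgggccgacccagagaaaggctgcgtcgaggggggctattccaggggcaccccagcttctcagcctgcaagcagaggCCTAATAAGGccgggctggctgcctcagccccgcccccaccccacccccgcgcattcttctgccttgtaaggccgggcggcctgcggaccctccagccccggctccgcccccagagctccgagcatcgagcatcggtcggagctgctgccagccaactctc
Actg1: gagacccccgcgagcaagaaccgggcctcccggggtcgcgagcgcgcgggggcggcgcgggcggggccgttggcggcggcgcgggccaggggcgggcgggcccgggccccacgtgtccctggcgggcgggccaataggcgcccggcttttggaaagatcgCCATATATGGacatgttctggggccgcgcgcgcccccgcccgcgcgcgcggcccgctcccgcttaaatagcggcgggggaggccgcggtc
Cnn2: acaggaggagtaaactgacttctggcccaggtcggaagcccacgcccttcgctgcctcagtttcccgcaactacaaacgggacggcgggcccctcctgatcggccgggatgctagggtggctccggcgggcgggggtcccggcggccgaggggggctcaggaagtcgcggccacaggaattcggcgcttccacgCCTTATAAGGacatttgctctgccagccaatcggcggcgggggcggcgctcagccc
Srf: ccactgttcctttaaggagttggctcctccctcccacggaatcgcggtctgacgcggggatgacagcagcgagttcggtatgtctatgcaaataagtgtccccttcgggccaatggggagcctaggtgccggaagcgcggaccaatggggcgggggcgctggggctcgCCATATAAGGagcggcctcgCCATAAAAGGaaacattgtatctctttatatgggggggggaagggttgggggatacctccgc
Fermt2: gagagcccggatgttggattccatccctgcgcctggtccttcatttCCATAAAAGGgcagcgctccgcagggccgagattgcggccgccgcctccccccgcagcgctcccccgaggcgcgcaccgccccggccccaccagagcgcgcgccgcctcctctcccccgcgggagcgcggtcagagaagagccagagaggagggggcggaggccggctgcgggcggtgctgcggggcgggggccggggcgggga
Ampd3: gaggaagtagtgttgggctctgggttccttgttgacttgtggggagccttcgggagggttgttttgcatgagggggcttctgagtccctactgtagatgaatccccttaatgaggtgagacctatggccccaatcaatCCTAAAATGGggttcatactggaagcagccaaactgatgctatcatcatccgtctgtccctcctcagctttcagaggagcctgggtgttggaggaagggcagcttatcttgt
The box ends 151 bases before the start in Myl9, 80 in Actg1, 46 in Cnn2, 194 in Fermt2 and 102 in Ampd3. Srf, whose product binds this element, has 2 boxes, at 72 and 52 bases. A match of letters is a description of the sequence, and no match says only that the letters are not in this window.

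The matched falls also included an adenylyl cyclase and 2 accessory subunits of potassium channels. Adcy5, the main adenylyl cyclase of heart muscle, which makes cyclic AMP (chr16:35155636-35304549), was read as follows: the 6 Ctrl libraries held 87.2 to 140.1 CPM with a median of 104, MKO 102 to 126 CPM with a median of 111, DKO 53.7 to 81.0 CPM with a median of 67.4 and TKO 37.5 to 62.9 CPM with a median of 44.0. The genotypes did not overlap in either arm or across arms. The change was -0.99 ± 0.11 (adjusted p = 7.7e-07), with -0.74 ± 0.14 in the Cre arm and -1.25 ± 0.14 in the guide arm, and the difference interval of -0.91 to -0.12 did not contain 0.

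Kcne1, the accessory subunit of the slow delayed rectifier potassium channel (chr16:92346001-92359468), held 296 to 417 CPM in Ctrl, 339.7 to 419 CPM in MKO, 186 to 283 CPM in DKO and 126 to 275 CPM in TKO. Here too the 12 mutant libraries lay below the 12 intact ones, and the change was -0.87 ± 0.11 (adjusted p = 3.7e-06). Kcnip2 (KChIP2), the accessory subunit of the transient outward channels, held 87.7 to 116 CPM in Ctrl, 63.8 to 85.1 CPM in MKO, 53.3 to 72.9 CPM in DKO and 16.4 to 46.6 CPM in TKO and changed by -0.98 ± 0.12 (adjusted p = 7.3e-06). Within each arm its groups did not overlap, but DKO reached above the lowest MKO library.

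Of 29 ion channel genes tested, 5 rose and 5 fell, beside 5.59% and 4.27% of all genes tested, and the median was -0.03. The matched rises included Cacna1h, a T-type calcium channel, at 0.73 ± 0.19 (adjusted p = 0.015), although it held only 4.39 CPM in 1 DKO library and its adjusted p was 0.054 with sex as a covariate. Its relative Cacna1g rose unequally, with 0.14 ± 0.12 in the Cre arm and 0.88 ± 0.12 in the guide arm. Of 26 calcium-handling genes 5 fell, all matched, and 2 rose, beside the same shares of all genes tested, and the median was -0.09. The falls were Casq2, the calcium buffer of the sarcoplasmic reticulum, at -0.29 ± 0.06 (adjusted p = 0.0016), Slc8a1, the sodium-calcium exchanger, at -0.40 ± 0.09 (adjusted p = 0.0043), Atp2a2, the calcium pump SERCA2, at -0.43 ± 0.11 (adjusted p = 0.014), and Tmem38a and Camk2d, at -0.31 ± 0.09 and -0.24 ± 0.07. Casq2 held 1975 to 2567 CPM in Ctrl, 1886 to 2192 CPM in MKO, 1657 to 1967 CPM in DKO and 1612 to 1843 CPM in TKO. Slc8a1 changed by -0.59 ± 0.12 in the Cre arm and -0.21 ± 0.12 in the guide arm. Its difference interval of 0.05 to 0.72 did not contain 0. The count of 5 falls became 3 without Ctrl 1, Ctrl 4, Ctrl 5, Ctrl 6, MKO 3, MKO 4, MKO 5, DKO 6 or TKO 1, the 2 rises became 1 without MKO 3 or TKO 5, and Slc8a1 was undecided without DKO 1.

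**Figure D2:**
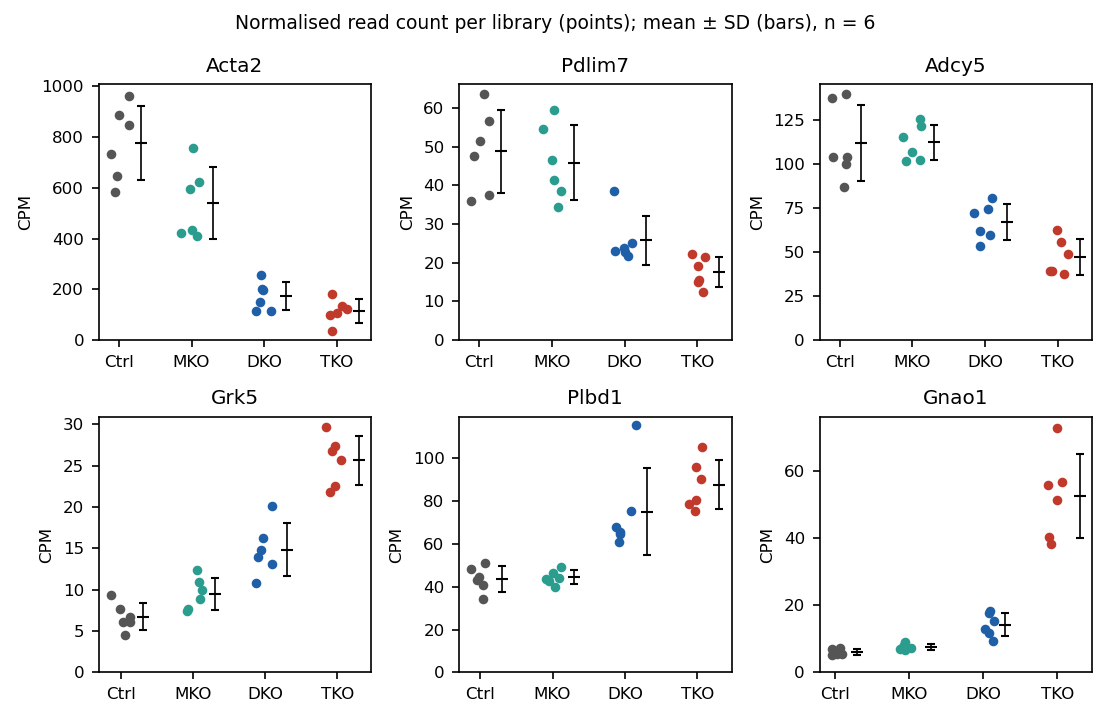
CPM per library in the 4 groups for Acta2, Pdlim7, Adcy5, Grk5, Plbd1 and Gnao1, with the mean and SD (n = 6) beside each group and every axis starting at 0. The first 5 genes moved the same way from Ctrl to DKO as from MKO to TKO, while Gnao1 stepped up far more in TKO (38.3 to 72.8 CPM) than in DKO (9.45 to 18.3 CPM).

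Rises that matched in both arms were led by Grk5, a kinase that phosphorylates and desensitises G protein-coupled receptors (chr19:60889749-61092555). For Grk5, the 6 Ctrl libraries held 4.58 to 9.30 CPM with a median of 6.42, MKO 7.45 to 12.4 CPM with a median of 9.39, DKO 10.8 to 20.2 CPM with a median of 14.3 and TKO 21.8 to 29.7 CPM with a median of 26.2. Within each arm the mutant libraries lay above every intact one, and across arms the lowest DKO library lay within the MKO range. The change was 1.28 ± 0.12 (adjusted p = 4.2e-08), with 1.12 ± 0.17 in the Cre arm and 1.43 ± 0.16 in the guide arm. Adora1, the adenosine A1 receptor, which couples to inhibitory G proteins, held 47.5 to 64.4 CPM in Ctrl, 52.0 to 76.4 CPM in MKO, 67.7 to 120.0 CPM in DKO and 128 to 164 CPM in TKO and rose by 0.93 ± 0.10 (adjusted p = 7.4e-07). Its difference interval of 0.12 to 0.85 did not contain 0.

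Of 25 genes of adrenergic and G protein signalling 3 rose and 1 fell, beside 5.59% and 4.27% of all genes tested, with a median of 0.11. Without DKO 1, 3 rose and 2 fell, and without DKO 6, 5 rose. Besides Grk5 and Adcy5 these were Rgs2, a GTPase activator that shortens G protein signals, at 0.70 ± 0.17 (adjusted p = 0.0073), and Gnao1, described below with the unequal genes. The highest Rgs2 value in DKO was 432 CPM beside a median of 193.

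Plbd1, a lysosomal phospholipase-like protein (chr6:136612071-136661893), held 34.2 to 51.0 CPM in Ctrl, 40.1 to 49.3 CPM in MKO, 61.0 to 115 CPM in DKO and 75.5 to 105 CPM in TKO. Its 24 libraries separated by genotype, and the change was 0.88 ± 0.09 (adjusted p = 4.4e-07). Fbxo32, the muscle ubiquitin ligase atrogin-1, rose by 0.89 ± 0.12 (adjusted p = 2.2e-05), from 125 to 233 CPM on average over the 12 libraries of each genotype. Ucp2, a mitochondrial carrier, rose by 0.82 ± 0.16 (adjusted p = 0.0015), but DKO 1 held 2497 CPM beside a DKO median of 906, and without it the change was 0.63. Bambi, a decoy receptor of the TGF-β family, rose by 0.77 ± 0.11 (adjusted p = 2.3e-05).

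Gclm, a subunit of the enzyme that limits glutathione synthesis (chr3:122245592-122266648), held 18.4 to 23.1 CPM in Ctrl, 17.4 to 27.8 CPM in MKO, 27.5 to 49.9 CPM in DKO and 30.1 to 47.8 CPM in TKO. Its change was 0.72 ± 0.09 (adjusted p = 1e-05), with 0.75 ± 0.13 in the Cre arm and 0.68 ± 0.13 in the guide arm. In both arms the mutant libraries lay above all intact ones of that arm. Of 20 genes of oxidative stress and metal binding tested, 3 rose with edgeR, beside 5.59% of all genes tested, and the median was 0.18. The other rises were Srxn1, which repairs oxidised peroxiredoxins, at 0.46 ± 0.10 (adjusted p = 0.0034), and Gpx3, a glutathione peroxidase, at 1.39 ± 0.28 (adjusted p = 0.0017), the last undecided, with 819 CPM in 1 TKO library. Srxn1 gave 0.25 ± 0.13 in the Cre arm and 0.67 ± 0.13 in the guide arm, and its difference interval of 0.03 to 0.79 did not contain 0. Without DKO 1, 5 of the list rose and 1 fell, and Srxn1 was undecided.

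Other large matched rises were spread over several functions. Atp6v0e2, a proton pump subunit, rose by 0.78 ± 0.13 (adjusted p = 0.00019), the aldehyde oxidase Aox1 by 0.78 ± 0.13 (adjusted p = 0.00023) and Pirt, a membrane regulator of TRP channels, by 0.75 ± 0.11 (adjusted p = 7.4e-05). The remaining large matched falls were Acp1, a small phosphatase, at -0.94 ± 0.22 (adjusted p = 0.0064), Tagap1 at -0.91 ± 0.16 (adjusted p = 0.00035) and Smoc2, a secreted calcium-binding matrix protein, at -0.85 ± 0.14 (adjusted p = 0.00024). Without DKO 1 Pirt was undecided.

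**Figure D3:**
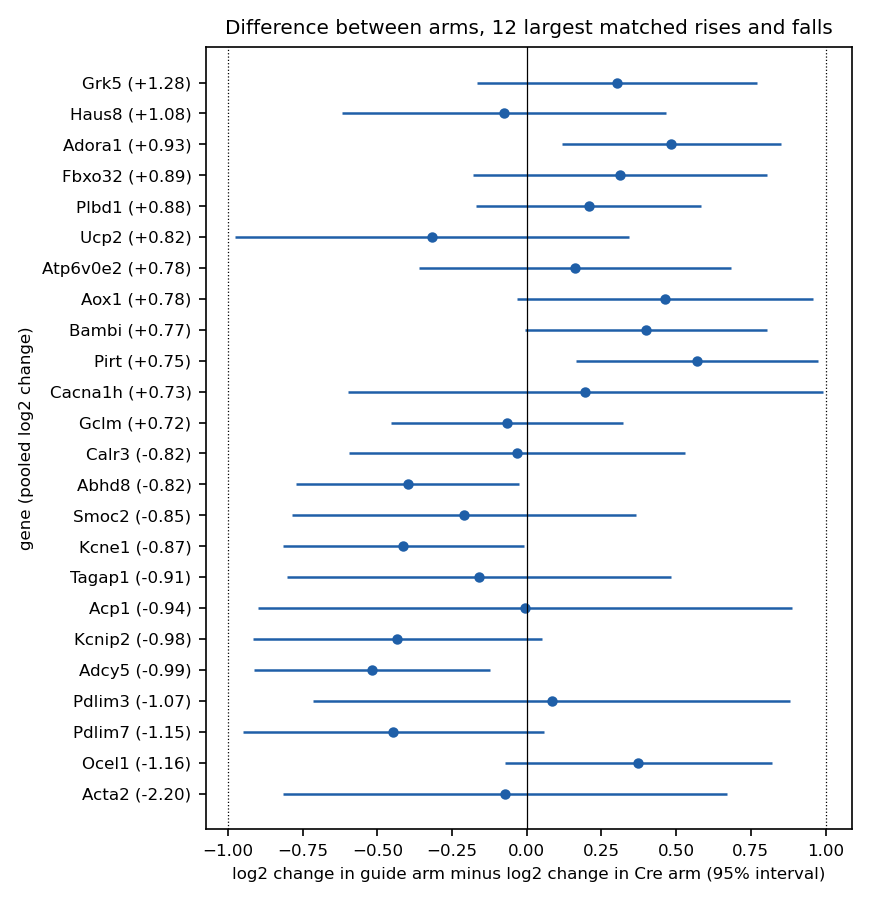
Difference between the arms (guide minus Cre, log2) with its 95% interval for the 12 largest matched rises and 12 largest matched falls; dotted lines mark the 2-fold bound and the pooled log2 change stands beside each gene. All intervals lie inside the bound by the rule; those of Adora1, Pirt, Adcy5, Kcne1 and Abhd8 do not contain 0.

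A stricter view needs no model: in 38 genes (0.309% of those tested) all 12 mutant libraries lay on one side of all 12 intact ones. Of these 27 were lower and 11 higher in the mutants, although more rises than falls were called overall. Among the 38, 27 were matched, 21 of them lower. Sh3kbp1, an adaptor of receptor endocytosis on the X chromosome, held 227 to 285 CPM in Ctrl, 212 to 253 CPM in MKO, 151 to 173 CPM in DKO and 119 to 149 CPM in TKO. Its change was -0.71 ± 0.05 (adjusted p = 1.1e-09), with arms of -0.67 and -0.75, and it was -0.72 with sex as a covariate. All 38 stayed called with sex as a covariate and without DKO 1. Without DKO 1, 55 genes separated fully, 41 of them lower.

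Others of the 38 had no place in the lists. Msrb3, a methionine sulfoxide reductase, changed by -0.45 ± 0.05 (adjusted p = 2.3e-06) with arms of -0.46 and -0.44. Plod1, a collagen lysyl hydroxylase, changed by -0.43 ± 0.06 (adjusted p = 1.1e-05), Osbpl3, a lipid transfer protein, by -0.67 ± 0.10 (adjusted p = 3.8e-05), and Rasd2, a small GTPase of the Ras family, by -1.79 ± 0.16 (adjusted p = 3.9e-08). On the rising side Arf5, a GTPase of Golgi traffic, changed by 0.61 ± 0.08 (adjusted p = 2.7e-05) and Pir (pirin) by 0.90 ± 0.13 (adjusted p = 3.9e-05). Rasd2 and Pir were low, at means of 7.09 and 1.65 CPM in the intact and 2.11 and 3.09 CPM in the mutant libraries. Il15, a cytokine, held 3.05 to 16.4 CPM in Ctrl, 2.03 to 15.1 CPM in MKO, 26.3 to 62.5 CPM in DKO and 18.1 to 30.2 CPM in TKO and changed by 1.54 ± 0.30 (adjusted p = 0.0015), with arms of 1.82 and 1.27. These genes were picked out after their values were seen.

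Sarcomere and Z-disc genes split: of 41 tested, 7 rose and 6 fell, beside 5.59% and 4.27% of all genes tested, and the median was 0.001. The matched rises were Myoz2, a calcineurin-binding Z-disc protein, at 0.59 ± 0.13 (adjusted p = 0.0026), and Tcap and Csrp3, which lie at the Z-disc, at 0.66 ± 0.15 and 0.44 ± 0.12. The matched falls were Pdlim3, Trim55 at -0.38 ± 0.06 (adjusted p = 0.00023), Tpm1 at -0.41 ± 0.09 (adjusted p = 0.0037), Nexn at -0.28 ± 0.07 and Myh6, the main adult myosin heavy chain, at -0.43 ± 0.13 (adjusted p = 0.029). Actc1, cardiac α-actin, fell from 24140.3 to 13614 CPM on average, a change of -0.86 ± 0.15 (adjusted p = 0.00034) that was undecided, with -0.56 ± 0.19 in the Cre arm and -1.15 ± 0.19 in the guide arm. DKO 1 held the highest value of Actc1, Myoz2, Tcap and Csrp3 in DKO. Without DKO 1 Actc1 was a matched fall at -0.99, with -0.83 in the Cre arm and -1.14 in the guide arm, and Myoz2 was unequal, with 0.15 and 0.73 (adjusted p of the difference 0.024). The list then had 8 rises, 2 of them matched, and 9 falls, all matched. Among 34 genes of the costamere and the intercalated disc 2 rose and 1 fell (4 and 4 without DKO 1, and 1 rise without MKO 1), near the 9.86% called over all genes, and the fall, Sntb1 (β1-syntrophin) at -0.64 ± 0.15 (adjusted p = 0.0061), was matched.

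In energy metabolism most calls were falls, to be read beside the 4.27% of all genes tested that fell and the 5.59% that rose. Of 7 genes of creatine use, Ckb, brain-type creatine kinase, was a matched fall at -0.81 ± 0.12 (adjusted p = 6.3e-05) without overlap between genotypes. Ckm, the muscle form, changed by -0.96 ± 0.16 (adjusted p = 0.00033) and was undecided, with -0.56 ± 0.20 in the Cre arm and -1.36 ± 0.20 in the guide arm. Of 25 glucose genes 4 fell, among them Slc2a4, the insulin-regulated transporter GLUT4, at -0.48 ± 0.10 (adjusted p = 0.0021), Slc16a1, a lactate transporter, at -0.34 ± 0.08 (adjusted p = 0.0072), and Pdha1 at -0.27 ± 0.07 (adjusted p = 0.012). Of 34 genes of fatty acid use 4 fell and 1 rose. The falls included Ppargc1b, a coactivator of mitochondrial genes, at -0.46 ± 0.09 (adjusted p = 0.00096), and Hadha of β-oxidation at -0.29 ± 0.07 (adjusted p = 0.0071).

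Of 52 nuclear-encoded genes of oxidative phosphorylation 2 fell, Sdha at -0.34 ± 0.07 (adjusted p = 0.0026) and Ndufs1 at -0.25 ± 0.07 (adjusted p = 0.021), both matched. That share lay near the 4.27% of all genes tested that fell. In the Cre arm Sdha changed by -0.22 ± 0.10 and Ndufs1 by -0.14 ± 0.10, neither called. The metabolic counts changed with 1 library. Without DKO 1, 19 oxidative phosphorylation genes, 11 fatty acid genes and 7 glucose genes were called lower, in place of 2, 4 and 4. Over all genes 881 of 12366 were called lower in that fit, in place of 524 of 12281. The creatine list then had 4 falls in place of 2. The count of 2 for oxidative phosphorylation was 1 without MKO 3 or MKO 4, and the count of 4 for fatty acid use was 2 without Ctrl 4, MKO 3, MKO 4 or MKO 5. In the 22 libraries without Ctrl 3 and DKO 1 the counts were 19, 12 and 7, with 1015 of 12356 lower over all genes. Voom, another test, called 18 of the oxidative phosphorylation genes lower and DESeq2 3, with 1074 and 717 lower over all genes.

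Genes commonly raised in the stressed heart were read next. The list of genes of the fetal program and of stress had 23 tested genes, of which 6 rose and 2 fell, beside 5.59% and 4.27% of all genes tested. Its median was 0.52, with 0.05 in the Cre arm and 0.82 in the guide arm. None of the 6 rises was matched, and in 3 the arms differed: Cacna1g, Fhl1 and Rcan1. Ankrd1, a stretch-responsive Z-disc and nuclear protein, gave 0.29 ± 0.24 in the Cre arm and 1.76 ± 0.25 in the guide arm. The natriuretic peptide genes Nppa and Nppb were not called, at 1.71 ± 0.76 and -0.05 ± 0.45. The 2 matched falls of the list were Acta2 and Atp2a2. Without DKO 1, 6 rose, 1 of them matched, and 4 fell, 3 of them matched.

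**Figure D4:**
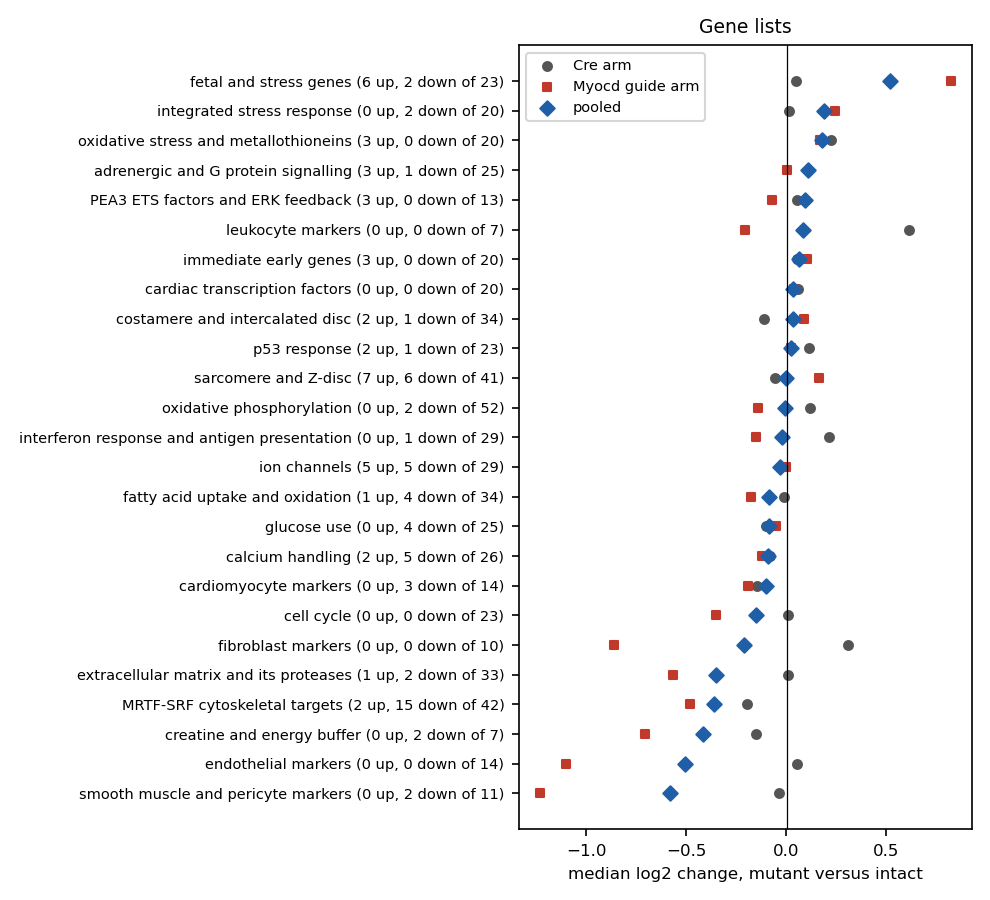
Median log2 change over each gene list with at least 7 tested genes, in the Cre arm (circles), the guide arm (squares) and pooled (diamonds), with the calls in the labels; the vertical line is the median of all genes tested (0.003). The MRTF-SRF list lies below it in both arms, at -0.19 and -0.48, while the fetal and stress list and the markers of fibroblasts, endothelium and smooth muscle with pericytes separate by arm.

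The other lists are read beside the 9.86% called over all genes tested. Of 20 immediate early genes 3 rose, Jund and Myc as matched rises at 0.46 ± 0.10 and 0.79 ± 0.18, and Arc, an activity-regulated gene on chromosome 15 within 10 Mb of Mrtfa, had 0.204 to 1.49 CPM in Ctrl, 0.323 to 1.21 CPM in MKO, 8.06 to 35.8 CPM in DKO and 0.552 to 17.6 CPM in TKO, a change of 4.44 ± 0.42 (adjusted p = 9.3e-08) with a difference interval of -2.79 to 0.93; the lowest TKO library lay within the intact range. Of 20 integrated stress genes 2 fell, Asns at -1.26 ± 0.22 (adjusted p = 0.0004) and Aldh18a1 at -0.38 ± 0.11 (adjusted p = 0.031), the second lost without MKO 6 or TKO 4. Of 33 matrix genes 2 fell and 1 rose, with Timp2, an inhibitor of matrix proteases, at -1.02 ± 0.11 (adjusted p = 7.7e-07) without overlap between genotypes. The falls numbered 4 without DKO 1, 5 without Ctrl 3 and 9 without both, and Timp2 was unequal without DKO 1. Of 29 interferon and antigen presentation genes 1 fell, Tap2 at -0.32 ± 0.08. Of 23 genes of the p53 response Eda2r and Trp53inp1 rose, at 0.73 ± 0.19 and 0.55 ± 0.16, and Perp fell, at -0.33 ± 0.10. The Perp call was lost in 18 of the 24 fits that left out 1 library and that of Trp53inp1 without TKO 1, and without DKO 1 Trp53inp1 was undecided. Of 13 genes of the PEA3 factors and ERK feedback 3 rose, Etv5, Spry4 and Phlda1, and none of them was matched; the Phlda1 call was lost in 16 of those 24 fits. None of 20 cardiac transcription factor genes was called with edgeR, while 4 had an unadjusted p under 0.05, and DESeq2 and voom called 1 each. None of 23 cell cycle genes was called with edgeR, with 3 under that unadjusted p, 0 called by DESeq2 and 1 by voom.

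Markers of other heart cells were read arm by arm. The median change of endothelial markers was 0.06 in the Cre arm and -1.10 in the guide arm, and of fibroblast markers 0.31 and -0.86. In the guide arm 6 of 14 endothelial and 1 of 10 fibroblast markers were called lower, beside 843 of the 12281 genes tested. In the pooled contrast neither list had a call with edgeR, DESeq2 or voom, with 5 endothelial and 0 fibroblast markers at an unadjusted p under 0.05 in edgeR, and Pecam1 and Col1a1, which define these cells, had -0.71 ± 0.32 and -0.45 ± 0.32. Of the smooth muscle and pericyte markers given above, Abcc9 fell at -0.61 ± 0.14 (adjusted p = 0.0057), and Des, which cardiomyocytes also express in bulk, was -0.01 ± 0.08. Of 2 Schwann cell and neuron markers Uchl1 rose, at 0.82 ± 0.15. The 7 leukocyte markers and the 1 erythroid marker tested had no call with edgeR, DESeq2 or voom, with 1 leukocyte marker at an unadjusted p under 0.05. Of 14 cardiomyocyte markers 3 fell, Myh6, Atp2a2 and Ckm, beside 4.27% of all genes tested, and 5 fell without DKO 1. In bulk RNA fewer cells of a type and less RNA per cell cannot be told apart, and the part of these cells in the larger guide arm changes was not tested.

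The 42 unequal genes were all changed more in the guide arm, 38 upward and 4 downward, and 5 had opposite signs in the arms. Without DKO 1 there were 111, 94 of them higher. The difference between arms was called for 57 genes over the whole table, or 0.464%. Gnao1, the G protein subunit α-o (chr8:93810838-93969388), had the largest difference among the unequal genes that the rule names. It held 5.08 to 7.34 CPM in Ctrl, 6.59 to 9.12 CPM in MKO, 9.45 to 18.3 CPM in DKO and 38.3 to 72.8 CPM in TKO. The mutant libraries lay above the intact ones in both arms, and the change was 1.24 in the Cre arm and 2.80 in the guide arm, a difference of 1.56 (interval 1.07 to 2.04, adjusted p = 0.0016).

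Etv5, an ETS transcription factor of the PEA3 group that lies within 10 Mb of Mrtfb, held 15.8 to 18.3 CPM in Ctrl, 18.1 to 30.0 CPM in MKO, 20.9 to 34.2 CPM in DKO and 80.8 to 165 CPM in TKO and differed by 1.42 (adjusted p = 0.0017). Hspa1l, a heat shock protein of the Hsp70 family, differed by 1.12, with 0.73 ± 0.14 in the Cre arm and 1.86 ± 0.14 in the guide arm. For these 3 genes the Cre arm rise was itself called. Tlr4, an innate immune receptor, and Tgfb2, a TGF-β ligand, differed by 1.41 and 1.24, and their Cre arm changes of 0.34 and 0.36 were not called. A pooled value for such genes is an average that neither arm shows.

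Genes near Mrtfa and Mrtfb were read separately, since the mutant mice carry altered alleles of both. Within 10 Mb of either locus 385 genes were tested and 70 called, or 18.2%, as against 9.59% of the 11896 genes elsewhere. The share was 22.7% within 2 Mb of Mrtfa and 23.5% within 2 Mb of Mrtfb, the second from 17 genes, and came down to 8.79% and 11.5% between 10 and 20 Mb. Without DKO 1 the shares were 22.9% near the loci and 14.6% elsewhere. Leaving these genes out altogether called 1122 of 11896.

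**Figure D5:**
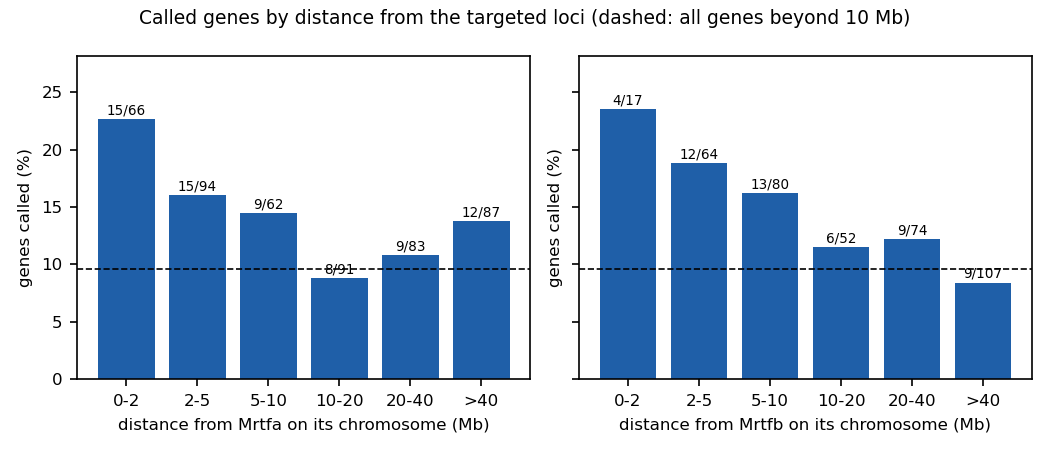
Percent of tested genes called in the pooled contrast by distance from Mrtfa (left) and Mrtfb (right) on their chromosomes, with called and tested genes above each bar; the dashed line is the 9.59% of genes beyond 10 Mb. The bars are highest within 2 Mb of each locus, at 22.7% and 23.5%.

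Near the loci 38 genes were matched. Lynx1, a toxin-like modulator of nicotinic receptors on chromosome 15, held 256 to 355 CPM in Ctrl, 258 to 376 CPM in MKO, 69.7 to 151 CPM in DKO and 88.7 to 168 CPM in TKO. The genotypes were fully apart, at -1.32 ± 0.12 (adjusted p = 3.9e-08), with -1.42 ± 0.17 in the Cre arm and -1.23 ± 0.17 in the guide arm. Pla2g6, a calcium-independent phospholipase, rose with full separation, from 13.9 to 16.7 CPM in Ctrl and 13.4 to 17.9 CPM in MKO to 20.2 to 29.5 CPM in DKO and 18.3 to 27.6 CPM in TKO, a change of 0.60 ± 0.08 (adjusted p = 1.3e-05). Other matched rises there were Tspo, a mitochondrial outer membrane protein, at 0.77 ± 0.12 (adjusted p = 7.2e-05), Jrk at 0.71 ± 0.11 (adjusted p = 7.6e-05), the p38γ kinase Mapk12 at 0.65 ± 0.10 (adjusted p = 0.00015) and Pmm1 at 0.57 ± 0.16 (adjusted p = 0.018). Other matched falls were St6gal1, a sialyltransferase, at -0.82 ± 0.14 (adjusted p = 0.00031), Micall1, an endocytic adaptor, at -0.65 ± 0.09 (adjusted p = 2.8e-05), and Ttc38 at -0.37 ± 0.08 (adjusted p = 0.0037). Tspo and Pmm1 were highest in DKO 1, at 127 and 40.3 CPM, and without that library Tspo passed the test of a difference between arms and Pmm1 was undecided.

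Of the 38 genes whose genotypes separated fully, 10 lay near the loci. They included Rtn4r, the Nogo receptor, on chromosome 16, at -2.62 ± 0.26 (adjusted p = 1.8e-07), and Snn at -1.56 ± 0.12 (adjusted p = 4.5e-09). Lypd2, beside Lynx1, was read in every intact library at 0.703 to 1.39 CPM and in 1 mutant library at 0.158 CPM, with the others at 0. The ribosomal protein gene Rpl3 was listed at 4.78 to 13.2 CPM in Ctrl, 4.84 to 8.14 CPM in MKO, 1.22 to 3.20 CPM in DKO and 1.29 to 1.97 CPM in TKO, and its reads are uncertain because it has near-identical copies.

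A second stretch with many calls lay on chromosome 8, away from both loci. Haus8, a subunit of the augmin complex of the spindle (chr8:71251124-71272590), held 20.7 to 37.2 CPM in Ctrl, 19.2 to 40.7 CPM in MKO, 52.0 to 65.9 CPM in DKO and 45.2 to 84.7 CPM in TKO and rose by 1.08 ± 0.13 (adjusted p = 3.6e-06). Ocel1, about 0.1 Mb away (chr8:71371298-71373689), held 9.61 to 18.6 CPM in Ctrl, 10.9 to 18.2 CPM in MKO, 4.37 to 7.39 CPM in DKO and 6.59 to 8.64 CPM in TKO and changed by -1.16 ± 0.11 (adjusted p = 1.4e-07). In both the 12 mutant libraries lay apart from the 12 intact ones, in opposite directions. Abhd8 changed by -0.82 ± 0.10 (adjusted p = 2.9e-06) and Calr3 by -0.82 ± 0.14 (adjusted p = 0.00025). In the span from Haus8 to Calr3, chr8:71251124-72443778, 10 of 34 tested genes were called (29.4%), 4 higher and 6 lower, and 9 were matched. On the rest of the chromosome 82 of 638 were called (12.9%). The span was drawn after these genes were seen, so its share is a description.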

How the data were processed

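Per the labels' protocols, cDNA came from the SMART Seq v4 kit and libraries from Nextera XT. Neither keeps the strand, so reads of antisense or overlapping genes are not separable. The submitters' processing notes name STAR, featureCounts, DESeq2 and mm10, without versions. The deposited table holds read counts per gene, whole numbers for 24 libraries. From the authors' deposited comparison tables, 2 of log2 fold changes, signal (the mean normalised count), scores (the test statistic) and p-values, only a check was taken: DESeq2 1.42.0 gave the same log2 values within 0.001 for 100% of genes, for DKO against Ctrl only without Ctrl 3 and DKO 1.

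Counts were tested with edgeR 4.0.16 (R 4.3.3), the two-sided quasi-likelihood test with TMM scaling, after filterByExpr at a minimum count of 10. The pooled change came from an additive fit of virus and genotype, the arm changes and their difference from a fit with a coefficient per group. Adjusted p-values are Benjamini-Hochberg over 12281 genes, called under 0.05, and ± is the SE unless named. CPM are counts scaled to the effective library size. Positions are those of the table. The code was tested on simulated data.

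Named genes were the targeted genes and Srf, the 12 largest matched rises and falls, 5 each within 10 Mb of the loci, the 5 largest differences between arms and up to 4 called members per list. They needed 10 CPM in 1 genotype and 11 of 12 mutant libraries beyond the intact mean of their virus, list members excepted. Clone names, pseudogenes, Xist and Y-linked genes were left out, and not every named gene is printed. The contrast and the 27 lists (638 of 643 entries in the table) were chosen with earlier results of these data known. Lists share members and are described by counts and medians, without a test.

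Groups share replicate numbers in the titles. Over 36 same-numbered pairs the correlation of deviations ran from -0.236 to 0.666, with 16 over 0.1, so the numbers were not taken to pair samples. No 2 libraries of a group agreed within sampling noise over 60 pairs. Alternatives were other scaling, filter, tools, designs, a replicate block, sex as a covariate and libraries left out; list counts under them, and arm, position and promoter values without DKO 1 or in 22 libraries, were added after seeing the data.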

Additional observations from a re-analysis of the deposited data

Results flagged for a closer look

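In 15 of the 168 combinations of a named gene and group examined, 1 library stood far from the other 5; chance flags about 1 in 20. DKO 1 was the highest DKO library in 7 of them, at 105.26 CPM for Srf, 115.25 for Plbd1, 2496.54 for Ucp2, 38.55 for Pdlim7, 50.93 for Abhd8, 127.43 for Tspo and 40.35 for Pmm1. Kcne1 was high in DKO 6 at 283.3 CPM and in TKO 1 at 274.68. Tspo was high in TKO 6 at 102.7 CPM. In the intact groups Aox1 was high in MKO 5 at 14.21 CPM, Kcnip2 and Micall1 in MKO 3 at 85.07 and 229.17 CPM, and Bambi in Ctrl 3 at 52.49 CPM. Etv5 was low in DKO 6 at 20.93 CPM.

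Of the 42 unequal genes, the rule for named genes picked 5. In these the log2 change in the guide arm exceeded that in the Cre arm by 1.56 for Gnao1, 1.42 for Etv5, 1.41 for Tlr4, 1.24 for Tgfb2 and 1.12 for Hspa1l. Some unequal genes below the 10 CPM asked of named genes differed more, such as Krt80 by 3.55.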

How the results depend on the processing

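Of the fits without 1 library, the one without DKO 1 moved the counts of called and matched genes most. Without it 1839 genes were called, 881 of them lower, with 1162 matched, 700 of them lower. The DKO libraries left in that fit were all female. In the 22 libraries without Ctrl 3 and DKO 1 the calls were 2093 (1078 higher, 1015 lower), 1184 shared with the 1211, and 1254 were matched (547 higher, 707 lower). Leaving out 1 library at a time gave 957 to 1839 calls, 567 to 958 higher and 390 to 881 lower, and 545 to 1162 matched, 266 to 462 higher and 279 to 700 lower. Unequal genes numbered 13 to 111 over these fits and 96 in the 22 libraries, in place of 42; they were 111 without DKO 1, 100 without Ctrl 2 and from 13 to 27 where the library left out was Ctrl 3, Ctrl 4, Ctrl 6, MKO 1, MKO 2, MKO 5, DKO 2, DKO 6, TKO 3, TKO 4 or TKO 6. The replicate block gave 66. Voom with quality weights called 2354 (1280 higher, 1074 lower). The Cre arm fitted alone called 43 (13 higher, 30 lower) and the guide arm alone 2581 (1177 higher, 1404 lower), each from 12 libraries. Sex as a covariate called 1572 and gave 573 matched rises. Asking for a difference within 1.5-fold left 446 matched, 194 of them higher. RLE scaling called 1193, no filter 1102 of 18307, DESeq2 1583 and the average of the arms 1330, all within 1.5 times. The replicate block called 1296, with 812 matched, and every named gene kept its call.

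No named gene changed direction. Of 89, all stayed called with DESeq2, voom and the 22 libraries; Cacna1h, Sorbs2 and Perp were lost with sex as a covariate, Perp with RLE scaling, and Perp, Acadm and Myh6 without the filter. With the Cre arm fitted alone 20 of the 89 kept their call and 68 lost it, and with the guide arm alone 83 kept it and 6 lost it. Over the 24 fits without 1 library, calls of named genes were kept 2085 times and lost 51 times, 18 of them for Perp and 16 for Phlda1. Depth of 5.83 to 17.18 M limits genes of a few CPM. The 437 undecided genes missed the rule for matched changes by the interval between arms or by another of its parts. Without the bound on the interval 968 genes met the rule.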

Other observations

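By chromosome the share of genes called was highest on chromosome 18, with 57 of 338 tested (16.9%), which holds neither Mrtfa nor Mrtfb. Chromosomes 15 and 16, which do, had 14.3% and 13.7%, chromosome 8 had 13.7% and the X chromosome 8.71%.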
